A study of Mus musculus with 6 samples.

Results

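A group of 8 genes that mark radial glia and neural progenitors was followed in cultures of mouse ventral midbrain: Nes, Vim, Fabp7, Sox9, Hopx, Tnc, Ptprz1 and Slc1a3. The 8 members were picked by name, and all 8 of 8 stood in the count tables, among 42396 genes in all, and passed the filter on low counts. Wild-type embryos of embryonic day 14 supplied the cells, of which each well took 150000. When they were plated, both groups received a lentivirus of the pll3.7 type at a multiplicity of infection of 5, with a scramble hairpin (Scr2) in the control and a hairpin against circRmst (shRmstI) in the knockdown. RNA was taken at 3 days in vitro from 2 to 3 wells per condition, and each group had 3 libraries. The labels name 3 independent cultures without saying which libraries share one, so p-values measure the spread between these libraries. The cultures are primary and mixed, and the knockdown rests on 1 hairpin. The series asks how lowering circRmst, a circular transcript of Rmst, changes gene expression beside the shape and migration of dopamine neurons.

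Radial glia are the elongated stem cells of the developing nervous system. They divide to give neurons and later glia, and their long processes guide migrating neurons. In the ventral midbrain, radial glia of the floor plate are the source of dopamine neurons. Radial glia share much of their expression with the astrocytes they later become, and several of these genes are also used by oligodendrocyte precursors (Fabp7, Ptprz1) or by fibroblasts (Vim, Tnc).

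The libraries held between 27248934 and 43646521 counts. Rmst itself was at 114.8, 116.6 and 124.0 CPM (counts scaled to library size, with TMM factors) in control replicates 1, 2 and 3, and at 104.9, 97.1 and 115.1 CPM in knockdown replicates 1, 2 and 3. The groups overlapped, and a count of the whole gene does not measure the circular form, so it does not check the knockdown. The cell type on the label, dopamine neurons, had its markers in every library: the tyrosine hydroxylase gene Th ranged from 36.9 to 60.9 CPM and the dopamine transporter gene Slc6a3 from 45.6 to 71.5 CPM. Markers of other cells were present too, so the label covers a mixed culture.

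The promoters of 3 members are shown because these genes bracket the behaviour of the 8: Fabp7 and Nes varied most between libraries, and Vim varied little. Each sequence is RefSeq's for GRCm38.p6, from 250 bases before the start of the gene to 50 after it, on the strand of the gene. The 3 lie at chr10:57784673-57784972 (Fabp7), chr3:87970843-87971142 (Nes) and chr2:13574061-13574360 (Vim), all on the plus strand. Capitals mark matches, on either strand, to the 6 motifs named after the sequences.
Fabp7: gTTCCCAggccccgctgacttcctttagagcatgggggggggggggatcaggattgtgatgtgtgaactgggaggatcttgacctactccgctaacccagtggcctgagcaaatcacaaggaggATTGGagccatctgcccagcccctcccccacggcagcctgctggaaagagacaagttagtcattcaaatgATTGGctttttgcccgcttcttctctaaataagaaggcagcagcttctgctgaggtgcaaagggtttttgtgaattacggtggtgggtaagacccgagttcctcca
Nes: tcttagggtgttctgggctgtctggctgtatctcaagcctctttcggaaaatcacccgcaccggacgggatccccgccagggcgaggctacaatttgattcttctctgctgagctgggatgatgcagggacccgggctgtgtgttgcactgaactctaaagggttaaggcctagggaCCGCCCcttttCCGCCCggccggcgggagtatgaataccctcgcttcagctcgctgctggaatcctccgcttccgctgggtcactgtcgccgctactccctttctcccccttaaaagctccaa
Vim: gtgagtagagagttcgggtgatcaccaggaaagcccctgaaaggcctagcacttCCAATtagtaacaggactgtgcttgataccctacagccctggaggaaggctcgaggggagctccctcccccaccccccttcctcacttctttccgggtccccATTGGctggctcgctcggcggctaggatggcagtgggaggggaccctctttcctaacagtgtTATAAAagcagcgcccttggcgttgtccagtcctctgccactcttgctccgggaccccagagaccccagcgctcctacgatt

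Both strands were searched for 6 motifs. The TATA box was taken as TATAAA, and the CCAAT box as the letters of its name. The GC box was taken as GGGCGG, and the core of the RBPJ site as TGGGAA. A core bound by Sox proteins was taken as ACAATG, and part of the site of NFI proteins as TTGGCA. The CCAAT motif read backwards can share bases with the NFI motif. In these windows Fabp7 had 2 CCAAT matches, 56 and 126 bases before the start, and 1 RBPJ core match. RBPJ is the DNA-binding protein of the Notch pathway. Nes had 2 GC boxes, 62 and 73 bases before the start. Vim had a TATA box 32 bases before the start and 2 CCAAT matches. Of 32851 promoters of the same length, 37.4% held a CCAAT match, 35.7% a GC box, 25.6% an RBPJ core and 13.6% a TATA box. Promoters were matched for 7 of the 8 members, all but Sox9. Of those 7, 4 held a CCAAT match, 4 a GC box, 3 a TATA box, 2 an RBPJ core, 1 the NFI motif and 0 the Sox core, counting every start listed for a gene. The NFI motif was in 14.1% of all promoters and the Sox core in 12.6%. Tnc and Hopx had more than 1 start, while these shares are per promoter, so counts and shares are not like for like. The bases after the Slc1a3 start were not found in its transcripts in the gene annotation GENCODE M21. That window is counted for the TATA, CCAAT and GC motifs. Fabp7 and Nes had none of the 6 motifs in common in these windows. A link between motifs and levels was not tested.

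Compared per length, on the authors' FPKM scale (fragments scaled to transcript length and library size), Fabp7 was the most abundant of the 8 and Hopx the least. Fabp7, the brain fatty acid-binding protein of radial glia, averaged 332 FPKM with a range from 225 to 416 over the 6 libraries. Vim, the intermediate filament vimentin, averaged 171 FPKM (154 to 197). Both stood apart from the rest, and their ranges did not overlap each other. Slc1a3, the glial glutamate transporter GLAST, averaged 37.1 FPKM (34.0 to 42.2). Ptprz1, a receptor tyrosine phosphatase that also exists as a secreted proteoglycan, averaged 27.6 FPKM (22.6 to 34.7). The ranges of Slc1a3 and Ptprz1 overlapped, but Slc1a3 was above Ptprz1 within each of the 6 libraries. Nes, the progenitor filament nestin, averaged 15.2 FPKM (11.6 to 21.8), and Sox9, a transcription factor of glial fate, averaged 9.89 FPKM (8.75 to 11.6). The ranges of Nes and Sox9 overlapped at their ends, but Nes was above Sox9 within each library. Tnc, the matrix glycoprotein tenascin C, averaged 5.00 FPKM (4.10 to 6.16). Hopx, an atypical homeodomain protein known from outer radial glia, averaged 2.03 FPKM (1.69 to 2.40).

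**Figure D1:**
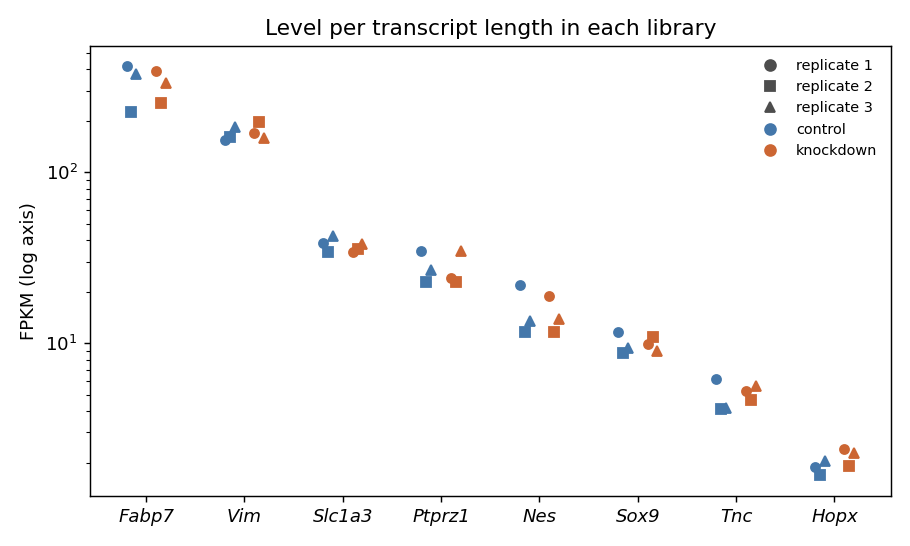
FPKM of each gene (log axis) in the 6 libraries, control in blue and knockdown in orange, with a symbol for each replicate number. Fabp7 spans 225 to 416 FPKM and Hopx 1.69 to 2.40 FPKM, and blue and orange points intermingle for every gene.

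No member passed the test between knockdown and control. In edgeR's quasi-likelihood test 0 of 8 members had an adjusted p under 0.05, with 0 of 17439 genes (0%) called in all (DESeq2 called 1 gene, no member). At an unadjusted p under 0.05 there were also 0 of 8 members, where 191 genes (1.1%) of all tested passed. The control and knockdown libraries overlapped in all 8 members, while 5.2% of all tested genes had groups that did not overlap. Of the 8, 3 had a log2 fold change above 0 and 5 below, against 48.1% of all genes above. That split changed with the libraries used, with no member called in any case. It was 7 of 8 above 0 without control replicate 1 (median 0.13), 6 of 8 without knockdown replicate 2 (median 0.08), 5 of 8 without control replicate 3 and 4 of 8 without knockdown replicate 1. It was 2 of 8 without control replicate 2 and 3 of 8 without knockdown replicate 3. The median log2 fold change was -0.02 for the 8 members and -0.01 for all tested genes. In bulk RNA, fewer cells of a type and less RNA per cell cannot be told apart, so these values speak of the culture as a whole.

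The 2 filament genes behaved differently. Nes was at 231, 124 and 144 CPM in control replicates 1, 2 and 3, and at 199, 120 and 151 CPM in knockdown replicates 1, 2 and 3. Replicate 1 was the highest library of each group, so the spread lay within the groups. Mean levels were 166 ± 57.1 CPM for the control and 157 ± 39.5 CPM for the knockdown (SD over 3 libraries), a log2 fold change of -0.09 ± 0.23 (SE) with a 95% interval from -0.59 to 0.41. Vim was at 473, 503 and 575 CPM in control replicates 1, 2 and 3, and at 536, 590 and 501 CPM in knockdown replicates 1, 2 and 3. These 6 values lie close together and intermixed. The log2 fold change of Vim was 0.07 ± 0.11 (SE), with a 95% interval from -0.17 to 0.31.

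The lipid-binding protein gene Fabp7 had the pattern of Nes in its extremes. It was at 414, 231 and 381 CPM in control replicates 1, 2 and 3, and at 412, 249 and 341 CPM in knockdown replicates 1, 2 and 3. Within each group replicate 1 was highest and replicate 2 lowest, and for numbers 1 and 2 the 2 libraries of a number lay closer to each other than to any other library. Control libraries averaged 342 ± 97.1 CPM and knockdown libraries 334 ± 81.7 CPM (SD over 3 libraries). The log2 fold change was -0.03 ± 0.22 (SE), and the 95% interval ran from -0.51 to 0.44. On the linear scale that interval runs from 0.703 to 1.36 times the control level.

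Of the nuclear proteins, Sox9 was at 81.2, 60.9 and 64.1 CPM in control libraries and at 68.4, 73.2 and 63.4 CPM in knockdown libraries, in the order of replicates 1, 2 and 3. Control replicate 1 was highest, and the other 5 libraries lay between 60.9 and 73.2 CPM. The log2 fold change was -0.01 ± 0.12 (SE), with a 95% interval from -0.28 to 0.26. Hopx was at 3.27, 2.86 and 3.38 CPM in control libraries and at 4.23, 2.99 and 3.75 CPM in knockdown libraries. Its log2 fold change was 0.21 ± 0.21 (SE), with a 95% interval from -0.25 to 0.67. With each library left out in turn the value ran from 0.09 (without knockdown replicate 1) to 0.33 (without knockdown replicate 2). Hopx was also the least counted, with 94 to 184 counts per library. It was the only member that was higher in the knockdown at each of the 3 replicate numbers. The share of all tested genes for which this held was not counted, and the labels do not pair libraries by number.

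The matrix and surface genes Tnc and Ptprz1 encode a ligand and a receptor that bind each other. Tnc was at 82.3, 54.5 and 57.1 CPM in control replicates 1, 2 and 3, and at 69.8, 58.2 and 78.0 CPM in knockdown replicates 1, 2 and 3. Ptprz1 was at 475, 316 and 375 CPM in control libraries and at 331, 303 and 492 CPM in knockdown libraries, in the same order. For both genes control replicate 1 and knockdown replicate 3 were the 2 highest libraries. The log2 fold change was 0.09 ± 0.16 (SE) for Tnc and -0.05 ± 0.19 (SE) for Ptprz1. The 95% intervals ran from -0.27 to 0.45 and from -0.47 to 0.37.

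The glutamate transporter gene Slc1a3 was at 285, 256 and 317 CPM in control replicates 1, 2 and 3, and at 260, 255 and 293 CPM in knockdown replicates 1, 2 and 3. Slc1a3 and Vim had the smallest ratios of highest to lowest library in CPM among the 8, while Nes had the largest (1.92). Control libraries averaged 286 ± 30.5 CPM and knockdown libraries 270 ± 20.9 CPM (SD over 3 libraries). The log2 fold change was -0.09 ± 0.11 (SE), with a 95% interval from -0.32 to 0.15. Slc1a3 was lower in the knockdown at each of the 3 replicate numbers, but at number 2 by only -0.01 on the log2 scale. The share of all tested genes lower at each number was not counted.

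**Figure D2:**
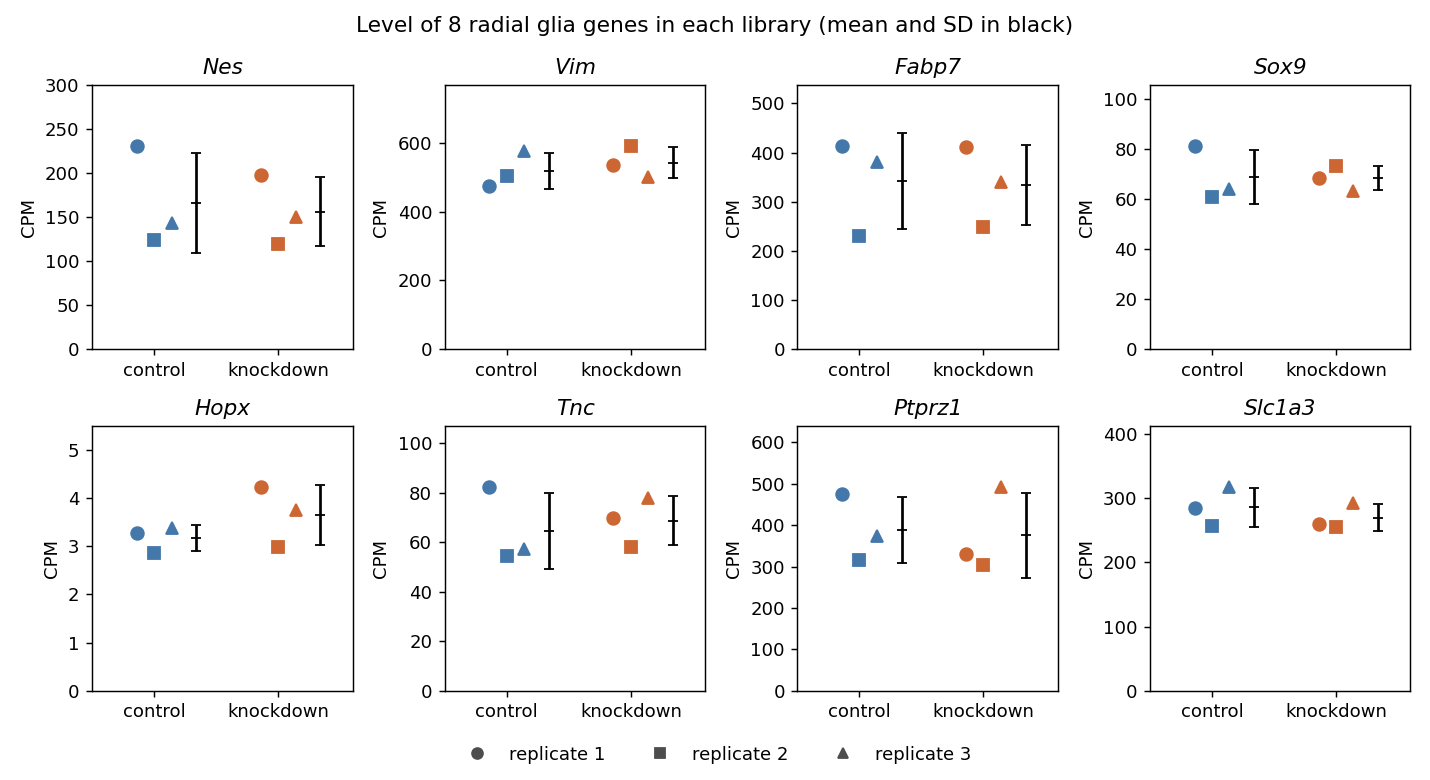
CPM of each gene in control (blue) and knockdown (orange) libraries, each axis starting at 0, with the symbol giving the replicate number and black bars the mean and SD of 3 libraries. The groups overlap in all 8 panels, and replicate 1 is high and replicate 2 low in both groups for Nes and Fabp7.

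**Figure D3:**
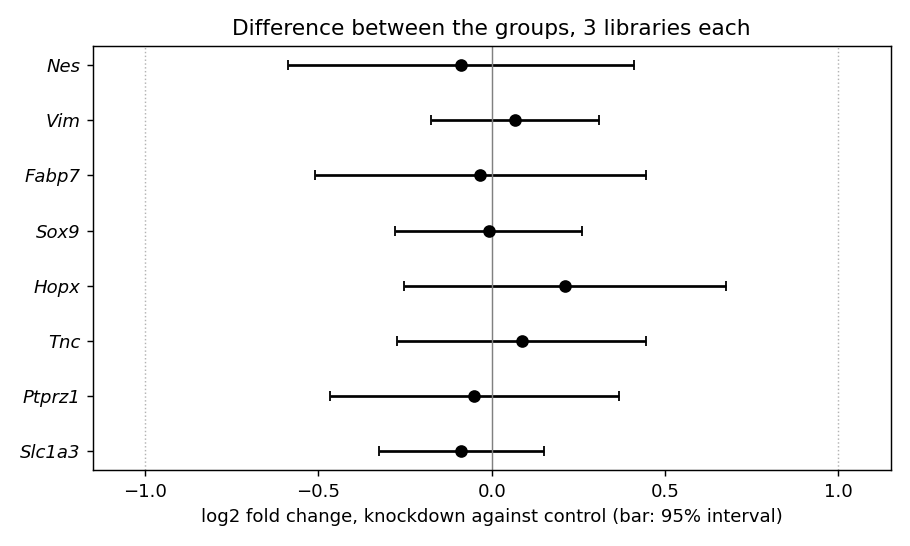
Log2 fold change of each gene, knockdown against control, with its 95% interval from edgeR; dotted lines mark a 2-fold change. All 8 intervals include 0 and none reaches a 2-fold change, the widest being that of Nes (-0.59 to 0.41).

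Compared within each replicate number, knockdown minus control was above 0 in 2 of 8 members at number 1, in 5 of 8 at number 2 and in 4 of 8 at number 3. Over all tested genes the shares above 0 were 47.4%, 50.3% and 49.5%. Ptprz1 was at -0.52 log2 units at number 1 and 0.39 at number 3. Tnc was at -0.24 at number 1 and 0.45 at number 3. So the direction of both changed between numbers.

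Differences between replicate numbers were larger than those between the groups for several members. The number terms of a fit with group and number were tested over all genes with edgeR, and 27 of 17439 genes (0.155%) were called, with 0 of 8 members among them. At an unadjusted p under 0.05 there were 2 of 8 members, Nes and Fabp7, against 8.94% of all tested genes. Nes had an adjusted p of 0.0714 and ranked 31st of all genes by p. Its log2 difference was -0.81 ± 0.12 (SE) for number 2 against number 1 and -0.54 ± 0.12 for number 3 against number 1. In the contrast of number 2 with number 1 alone, Nes had an adjusted p of 0.0442 in edgeR, while the test over all 3 numbers did not pass. That p was not adjusted over the pairs of numbers, and the share of all genes called in that contrast was not counted. No other member was under 0.05 in any pair of numbers. For number 3 against number 1, Nes had an adjusted p of 0.231 in edgeR. Fabp7 had an adjusted p of 0.0952 over the 3 numbers, with a log2 difference of -0.78 ± 0.12 (SE) for number 2 against number 1. In edgeR the adjusted p of that contrast alone was 0.0554. Fabp7 differed by 0.59 ± 0.12 for number 3 against number 2 (adjusted p = 0.259 in edgeR). Tnc had -0.44 ± 0.16 for number 2 against number 1 (adjusted p = 0.571 over the 3 numbers in edgeR), and Ptprz1 had -0.38 ± 0.18 (adjusted p = 0.571). Vim had 0.11 ± 0.13 for the same contrast, the only one of the 8 above 0.

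In 5 of 8 members, Nes, Fabp7, Hopx, Ptprz1 and Slc1a3, both libraries numbered 2 were the lowest of the 6. The same held for 9.59% of all tested genes. Taking the groups one at a time, control replicate 2 was the lowest control library in 7 of 8 members (30.2% of all genes), and knockdown replicate 2 was the lowest knockdown library in 6 of 8 (32.6% of all genes). In 6 of 8, replicate 2 was below both other replicates in each group (13.6% of all genes). Both libraries numbered 1 were the highest in 2 of 8, Nes and Fabp7 (10.1% of all genes), and both numbered 3 in Slc1a3 alone (7.46%). No member had both libraries numbered 2 highest (10.1%), both numbered 1 lowest (10.3%) or both numbered 3 lowest (7.16%). These ways of counting were chosen with earlier results known. In FPKM the count was 3 of 8, since Hopx and Slc1a3 no longer had both libraries lowest. Summed over the 8 members, the level was 2045, 1549 and 1917 CPM in control replicates 1, 2 and 3, and 1881, 1652 and 1923 CPM in knockdown replicates 1, 2 and 3. The 2 lowest sums were those of number 2, while the groups overlapped.

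**Figure D4:**
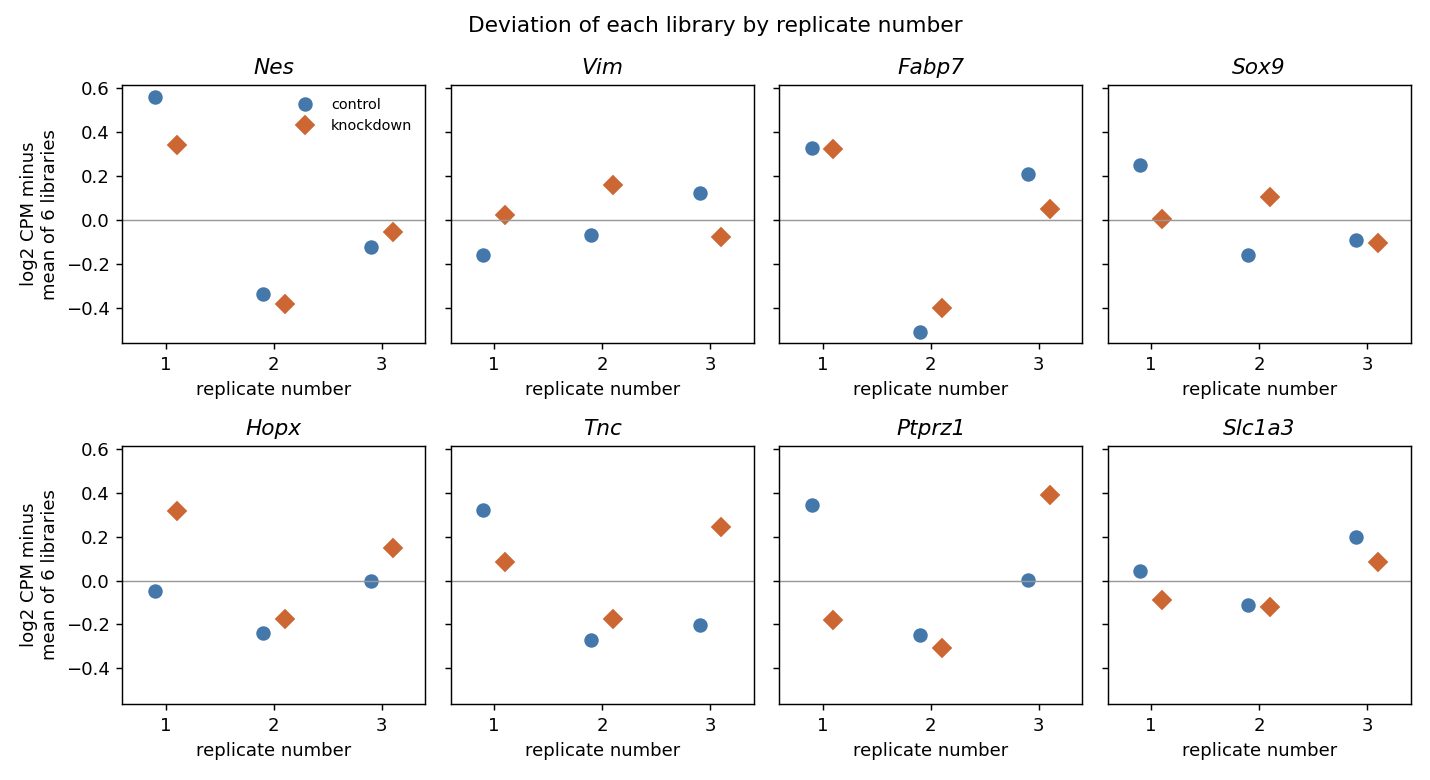
Log2 CPM of each gene minus its mean over the 6 libraries, by replicate number, control as blue circles and knockdown as orange diamonds. Number 2 is below 0 in both groups for 6 genes, and reaches -0.51 for Fabp7, while Vim and Sox9 have 1 library on each side.

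Some other genes moved with the replicate number. Among the 27 genes called between numbers were Dmbx1 and Zic1, regional transcription factor genes of the early brain, named here after their values were seen. Dmbx1 was at 12.3 and 14.4 CPM in the libraries numbered 2 and at most 1.22 CPM in the others. Zic1 was at 42.8 and 39.4 CPM in the libraries numbered 1, at 15.3 and 16.1 CPM in those numbered 2 and at 2.19 and 2.08 CPM in those numbered 3. Xist, the RNA of the inactive X chromosome in female cells, was also among the 27. It was at 813, 364 and 798 CPM in control replicates 1, 2 and 3, and at 637, 342 and 937 CPM in knockdown replicates 1, 2 and 3. Both libraries numbered 2 were its lowest, as in 5 of the 8 members. The part of these genes in the members' differences by number was not tested. The share of counts on the ribosomal RNA gene Rn28s1 was 4.02%, 2.90% and 2.98% in control replicates 1, 2 and 3. It was 4.49%, 3.17% and 1.01% in knockdown replicates 1, 2 and 3. The 2 libraries numbered 3 thus differed, and the share did not follow the number there. The part of this share was not tested either.

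Genes that work with the members were compared as lists. None of their tested members had an adjusted p under 0.05 in edgeR, in either direction. Of 21 genes of progenitor transcription factors and Notch signalling, which keeps radial glia undifferentiated, 11 were above and 10 below, with a median log2 fold change of 0.00131. The smallest p values in that list belonged to Id1, an inhibitor of differentiation downstream of BMP signals, with 0.47 ± 0.20 (SE), and to Sox3, with -0.23 ± 0.13. Only Id1 among the 21 had an unadjusted p under 0.05. Of 12 tested ligands and partners of Tnc and Ptprz1, 8 were above and 4 below, with a median of 0.03. There Ncan, the proteoglycan neurocan, had 0.24 ± 0.12, and Bcan, the related brevican, had 0.19 ± 0.14. Ptn, which encodes pleiotrophin, a ligand of Ptprz1, was at 176, 91.6 and 110 CPM in control replicates 1, 2 and 3, and at 144, 103 and 100 CPM in knockdown replicates 1, 2 and 3. Ptn was thus highest in replicate 1 of both groups, as Nes was, and was picked from the list after its values were seen. Of the 12 tested partners, 8 were lower at number 2 than at number 1. Others were higher, among them Itga8 with a log2 difference of 0.81 ± 0.26 (SE).

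For the filaments, 4 of 6 listed partners of nestin and vimentin were above 0 and 2 below, with a median of 0.09. Gfap, the filament of astrocytes, had 0.37 ± 0.23 (SE), and Synm, the filament protein synemin, had 0.19 ± 0.16. In glial glutamate handling, 3 of 5 genes were above, with a median of 0.03. Slc1a2, the second glial glutamate transporter, had -0.12 ± 0.10, and the glutamine synthetase gene Glul had 0.04 ± 0.09. Of 11 tested genes of floor plate progenitors, 8 were above and 3 below, with a median of 0.02, among them Wnt5a with 0.18 ± 0.10 and Ferd3l with 0.15 ± 0.13.

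Lists of the cells that could share the members' RNA gave the following counts. All 9 genes of oligodendrocyte precursors were below 0, with a median of -0.33, and Sox10 had -0.45 ± 0.16 (SE) and Gpr17 -0.46 ± 0.21. Of 15 genes of dividing cells, 13 were below, with a median of -0.24, and Bub1b had -0.35 ± 0.13 and Mcm5 -0.34 ± 0.14. None of these genes passed the adjusted threshold in edgeR, and of all tested genes 9049 of 17439 were below 0. With each library left out in turn, 8 or 9 of 9 precursor genes and 11 to 14 of 15 genes of dividing cells were below 0, in counts added after seeing the data. The median of the precursor genes then lay between -0.51 and -0.16, and that of dividing cells was -0.07 without control replicate 1. Of 13 tested astrocyte genes 6 were above and 7 below (median -0.02), with Aldoc at 0.22 ± 0.12. Of 9 tested genes of meningeal fibroblasts and mural cells 5 were above and 4 below (median 0.02), with Col1a1 at 0.35 ± 0.15 and Fn1 at -0.29 ± 0.12. Neurons had 4 of 10 above (median -0.00291), with Rbfox3 at -0.12 ± 0.11 and Elavl4 at -0.10 ± 0.12. Dopamine neurons had 2 of 9 above (median -0.04), with En1 at -0.05 ± 0.10 and Slc18a2 at -0.08 ± 0.17. That count was 6 of 9 above without control replicate 3 (median 0.03) and 5 of 9 without knockdown replicate 2. Of the 13 lists, 4 kept the sign of their median with each library left out in turn: oligodendrocyte precursors, dividing cells, floor plate progenitors and filament partners. The medians of the other 9 changed sign without at least 1 library.

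Endothelial and microglial RNA was scarce beside that of the members. The 7 endothelial genes summed to between 17.1 and 21.01 CPM per library, with Cldn5 at 0 counts in all 6. Most of that sum was Kdr, at 13.8 to 17.2 CPM, while Cdh5, Cldn5 and Emcn did not pass the filter. The tested ones, 4 of 7, had a median of -0.06, with Flt1 at -0.22 ± 0.35 (SE) and Tek at -0.12 ± 0.57. Tek was near the floor, at 0.14 to 0.67 CPM per library. The 9 microglial genes summed to between 15.7 and 20.6 CPM, with Aif1 and Trem2 at 0 counts in all 6. The tested ones, 6 of 9, had a median of -0.10, with Tmem119 at -0.87 ± 0.39 and Csf1r at 0.17 ± 0.19. Tmem119 was near the floor, at 0.32 to 0.76 CPM per library. Of these 6 genes 2 were above 0, and 5 were without control replicate 1 (median 0.17).

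Of the lists of cells, 2 had their lowest sum at number 2 in each group, as the members did. So had the partners of Tnc and Ptprz1 (1925 and 2097 CPM). The order of the other numbers differed. The members were highest at number 1 in the control and at number 3 in the knockdown. Dividing cells were highest at number 1 in both groups, and oligodendrocyte precursors at number 3. Genes of dividing cells summed to 537, 362 and 455 CPM in control replicates 1, 2 and 3, and to 422, 365 and 378 CPM in knockdown replicates 1, 2 and 3. All 15 were lower at number 2 than at number 1, with a median log2 difference of -0.25, against -0.36 for the 8 members and -0.00137 for all genes. Of all tested genes, 8750 of 17439 were lower at number 2 than at number 1. Genes of oligodendrocyte precursors summed to 495, 341 and 529 CPM in control libraries and to 342, 324 and 435 CPM in knockdown libraries, with a median of -0.36 for number 2 against number 1. Genes of fibroblasts and mural cells went the other way, at 336 and 341 CPM in the libraries numbered 2 and between 241 and 308 CPM in the others. Neuron genes summed to between 5935 and 7030 CPM. The part of these cells in the members' differences by number was not tested.

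**Figure D5:**
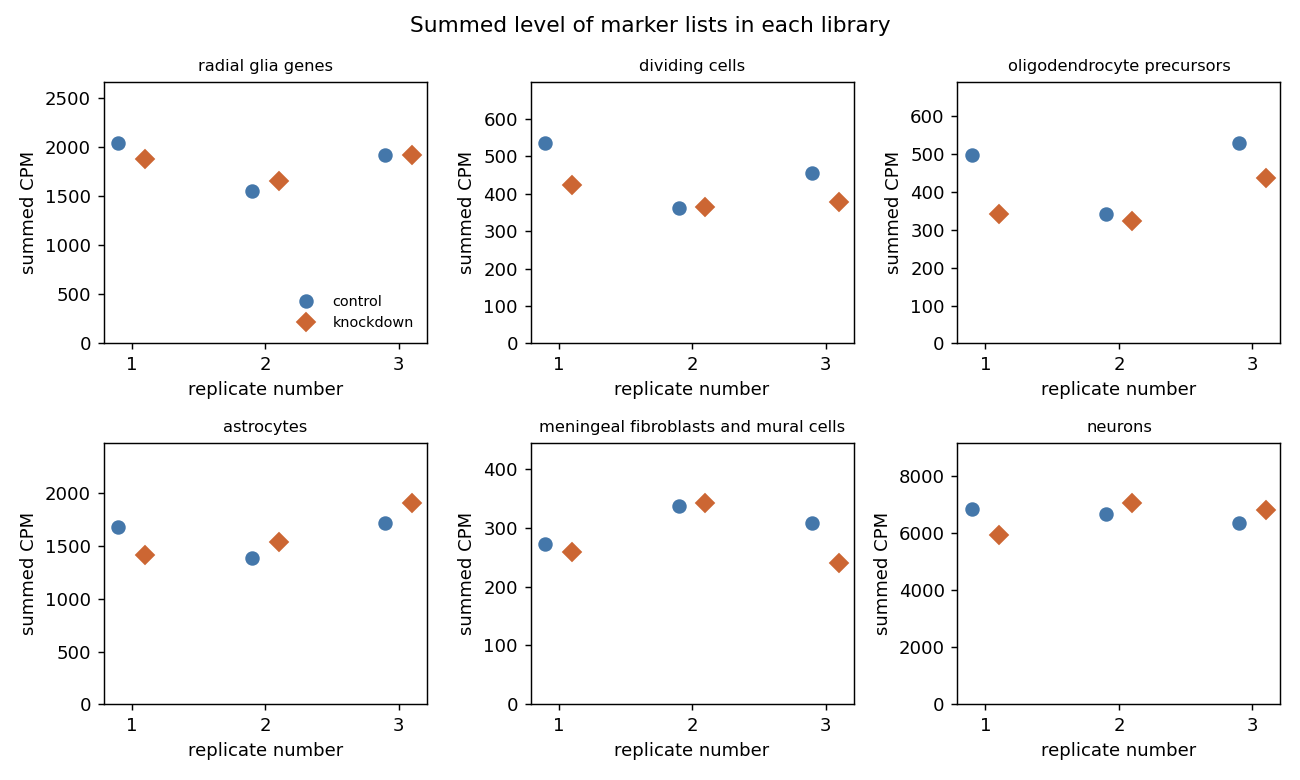
Summed CPM of the 8 radial glia genes and of 5 marker lists by replicate number, control as blue circles and knockdown as orange diamonds, each axis starting at 0. The radial glia sum is lowest at number 2 (1549 and 1652 CPM), as are those of dividing cells and oligodendrocyte precursors in both groups. The fibroblast sum is highest there (336 and 341 CPM).

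The genes most like the members were sought over the 6 libraries by the Pearson correlation of log2 CPM with the mean of the 8. Among 11793 genes of at least 5 CPM that are no members, the closest included Gm14325 (r = 0.999), Elk4 (r = 0.991), Gabpb2 (r = 0.986) and Rabep2 (r = 0.983). These are descriptions over 6 libraries that may share cultures, picked from many genes. Gm14325 was at 21.03, 14.8 and 18.2 CPM in control replicates 1, 2 and 3, and at 19.7, 15.6 and 19.2 CPM in knockdown replicates 1, 2 and 3. Both libraries numbered 2 were its lowest, which follows from its choice by correlation with the mean of the 8. Elk4, a transcription factor gene, moved little, between 38.2 and 46.5 CPM.

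The members lie on 8 different chromosomes. On GRCm38 their positions, from the authors' tables, are chr3:87971093-87980451 for Nes, chr2:13574311-13582826 for Vim, chr10:57784923-57788450 for Fabp7, chr11:112782210-112787757 for Sox9, chr5:77086986-77115123 for Hopx, chr4:63959785-64047015 for Tnc, chr6:22875315-23052916 for Ptprz1 and chr15:8634124-8710807 for Slc1a3. In GENCODE M21, exons of Hopx share 412 bases with Hopxos on the opposite strand, and exons of Tnc share 176 bases with 8030451A03Rik, also on the opposite strand. No source used here gives the strand setting of the counting, so such pairs may share reads. Hopxos had 0 to 3 counts per library and 8030451A03Rik had 1 to 7.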

How the data were processed

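The deposited counts are whole numbers per gene, 1 table for each of the 6 libraries, and the authors' FPKM values stand in Cufflinks gene tables, per the file headers. The submitters' processing notes name GRCm38 (mm10), bcl2fastq 2.20, Cufflinks 2.2.1 and DESeq2 without a version, with aligner and counting tool not given in the sources used here. Per the labels, libraries were depleted of ribosomal RNA and keep the strand.

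Counts were tested with edgeR 4.0.16 (R 4.3.3): filterByExpr, which left 17439 genes, TMM scaling, the quasi-likelihood test and Benjamini-Hochberg adjustment over all genes, with a threshold of 0.05. The main design held the group alone. A fit with group and replicate number gave the tests between numbers. Log2 CPM used a prior count of 2. Named genes were the 8 members, up to 2 genes of each of 13 lists with the smallest p, and the 5 genes most like the members, of which 1 is not reported here. The fits were run on simulated counts with known fold changes as a check of the code. The spread of those counts came from the fit with group and number. They therefore do not check the main design at the spread of these libraries. The members and lists were chosen with earlier results of these data known. Alternatives were other scalings, filters, DESeq2 1.42.0, limma 3.58.1 (voom, and log2 FPKM), the replicate number as a block, and each library left out. No pair of libraries within a group agreed within sampling noise (chi-square per degree of freedom from 12.8 to 91.4).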

Additional observations from a re-analysis of the deposited data

How the results depend on the processing

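The members kept 0 calls against the control under each of 16 alternatives, and 0 calls between replicate numbers under each of 3. Over all genes, edgeR without a filter on low counts called 11 (5 higher in the knockdown) and DESeq2 called 1, higher in the knockdown, none of them a member or a gene of the lists. At an unadjusted p under 0.05 edgeR had 191 genes in the main design, 588 without the filter and 634 to 1071 in FPKM with limma. Leaving out 1 library gave 198 to 451, with 404 without knockdown replicate 2 and 451 without knockdown replicate 3. With each library left out in turn, 0 genes were called, 0 members and 0 genes of the other lists. Of 128 values of a member's log2 fold change, 111 kept their sign and 17 did not. Leaving out 1 library gave -0.30 to 0.23 for Nes, -0.24 to 0.14 for Fabp7, -0.28 to 0.12 for Ptprz1, -0.0748 to 0.13 for Sox9, -0.00825 to 0.30 for Tnc, and -0.15 to 0.00309 for Slc1a3. Vim (0.00276 to 0.16) and Hopx (0.09 to 0.33) stayed above 0. Nes, Fabp7 and Ptprz1 were above 0 without control replicate 1 and without knockdown replicate 2, Fabp7 also without control replicate 3, and Ptprz1 also without knockdown replicate 1. Sox9 was above 0 without control replicate 1 and without knockdown replicate 3, and Slc1a3 without control replicate 3. Tnc was below 0 without control replicate 2 and without knockdown replicate 3. Sox9, close to 0 in the main design, was also above 0 with the replicate number as a block (0.000112) and in FPKM with a pseudocount of 0.1 (0.00323, with or without a filter) or 1 (0.00252). The cause was not tested.

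With the replicate number as a block, 0 genes and 0 members were called. The deviations of libraries with the same number correlated at 0.32, 0.35 and 0.05 over 14501 genes for numbers 1, 2 and 3, and 4 of 6 libraries correlated best with their own number, a hint from the data rather than from the design. Between numbers, 27 genes were called with DESeq2 size factors, 23 with a filter of 1 CPM and 24 with limma voom. The count of members with both libraries numbered 2 lowest was 5 with DESeq2 size factors, 6 with library totals and 3 in FPKM, alternatives chosen after seeing the data. Hopx is limited by its depth of 94 to 184 counts.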
